A study of Homo sapiens with 8 samples.

Results

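TASOR and TASOR2 are the paralogous genes whose dosage was altered in this study of K-562 cells, and their own RNA is described here. They are 2 of the 1221 distinct genes that appear in at least 1 of 3 tables of genome-wide comparisons. Both were found by their symbol, and the Ensembl identifier in the tables matched the symbol in each case. K-562 is an established human leukaemia line. Total RNA depleted of ribosomal RNA was sequenced in 8 libraries, which form 4 groups of 2. The controls were parental wild-type cells that had received a negative guide RNA. The TASOR KO cells were grown from single sorted cells after CRISPR/Cas9 editing of TASOR. The other two groups were TASOR KO cells with a FLAG-TASOR transgene and parental wild-type cells with a FLAG-TASOR2 transgene. Per the labels' protocols, cells received a lentivirus with either an empty puromycin resistance vector or a transgene. Knockout clones were checked by genomic DNA sequencing and western blot. The labels name no guide for the FLAG-TASOR2 cells, so guide treatment and transgene cannot be told apart in that group. The number of clones, the guide sequences, the edited alleles and the promoter of the transgenes are not given in the sources used here. Nothing says that the 2 libraries of a group came from separate clones, so every p measures the spread among the libraries at hand, which may be technical.

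TASOR is the scaffold subunit of the human silencing hub, HUSH, in which it is joined by the chromodomain protein MPHOSPH8 (MPP8) and by periphilin, encoded by PPHLN1. HUSH silences evolutionarily young LINE-1 retrotransposons, integrated retroviral DNA and some genes, and works with the histone H3 lysine 9 methyltransferase SETDB1 and the ATPase MORC2. TASOR2 is a paralog of TASOR and defines a second complex of this kind. The study asked how these complexes share the silencing of LINE-1 elements. For the present pair of genes, the tables answer how far the RNA of each differed from the controls in each altered group.

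TASOR (ENSG00000163946, named FAM208A in GENCODE 29) lies on the minus strand of chromosome 3, at 56620133 to 56683237 of GRCh38. TASOR2 (ENSG00000108021, FAM208B) lies on the plus strand of chromosome 10, at 5684838 to 5763740. The genes span 63.1 kb and 78.9 kb, and the principal transcript of each has 24 exons. The coding sequence of that transcript is 4536 bases long in TASOR and 7935 bases in TASOR2. The exons of all annotated transcripts together cover 9.82 kb in TASOR and 10.96 kb in TASOR2.

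TASOR and TASOR2 have no long identical stretch in common. No run of 31 bases was common to their annotated transcripts (0 of 9920 distinct runs in TASOR and 0 of 11121 in TASOR2). The longest identical run in the coding sequences of the principal transcripts was 12 bases. Similarity was concentrated near both ends of the coding sequences. The most similar ungapped stretch of 120 bases lies in exon 20 of both genes, towards the end of the coding sequence, where 80 of 120 bases (66.7%) were identical. It is shown because it is the place where reads of TASOR and TASOR2 resemble each other most, with capitals for the bases that are identical in the other gene.
TASOR, chr3:56627614-56627733, minus strand: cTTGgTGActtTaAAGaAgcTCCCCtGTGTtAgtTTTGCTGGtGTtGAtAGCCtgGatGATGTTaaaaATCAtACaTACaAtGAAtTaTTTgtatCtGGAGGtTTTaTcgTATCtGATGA
TASOR2, chr10:5757528-5757647, plus strand: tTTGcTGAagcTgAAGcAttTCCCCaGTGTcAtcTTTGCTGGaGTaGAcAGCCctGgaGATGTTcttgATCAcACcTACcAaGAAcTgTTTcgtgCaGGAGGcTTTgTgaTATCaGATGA
Both stretches are read in the same frame, and mismatched bases are scattered through them.

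A second stretch past 60% identity lies near the start of the coding sequences, across exons 4 and 5 of TASOR and exons 5 and 6 of TASOR2. In it, 73 of 120 bases (60.8%) were identical. It starts at coding base 616 of TASOR and coding base 427 of TASOR2, again in the same frame. The 2 sequences are printed below with the same use of capitals, because it is the next most similar part of the genes.
TASOR, coding strand: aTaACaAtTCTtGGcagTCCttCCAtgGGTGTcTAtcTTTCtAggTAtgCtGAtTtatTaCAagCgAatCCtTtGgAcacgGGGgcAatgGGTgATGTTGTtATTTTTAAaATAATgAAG
TASOR2, coding strand: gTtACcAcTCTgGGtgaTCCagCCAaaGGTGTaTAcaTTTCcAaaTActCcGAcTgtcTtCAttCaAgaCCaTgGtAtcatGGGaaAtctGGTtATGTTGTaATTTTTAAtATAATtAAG
The middle of both coding sequences had no stretch of this similarity. Over 295 windows of TASOR, the best match in TASOR2 had a median identity of 43.3%. Over 522 windows of TASOR2, the best match in TASOR had a median of 41.7%.

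**Figure D1:**
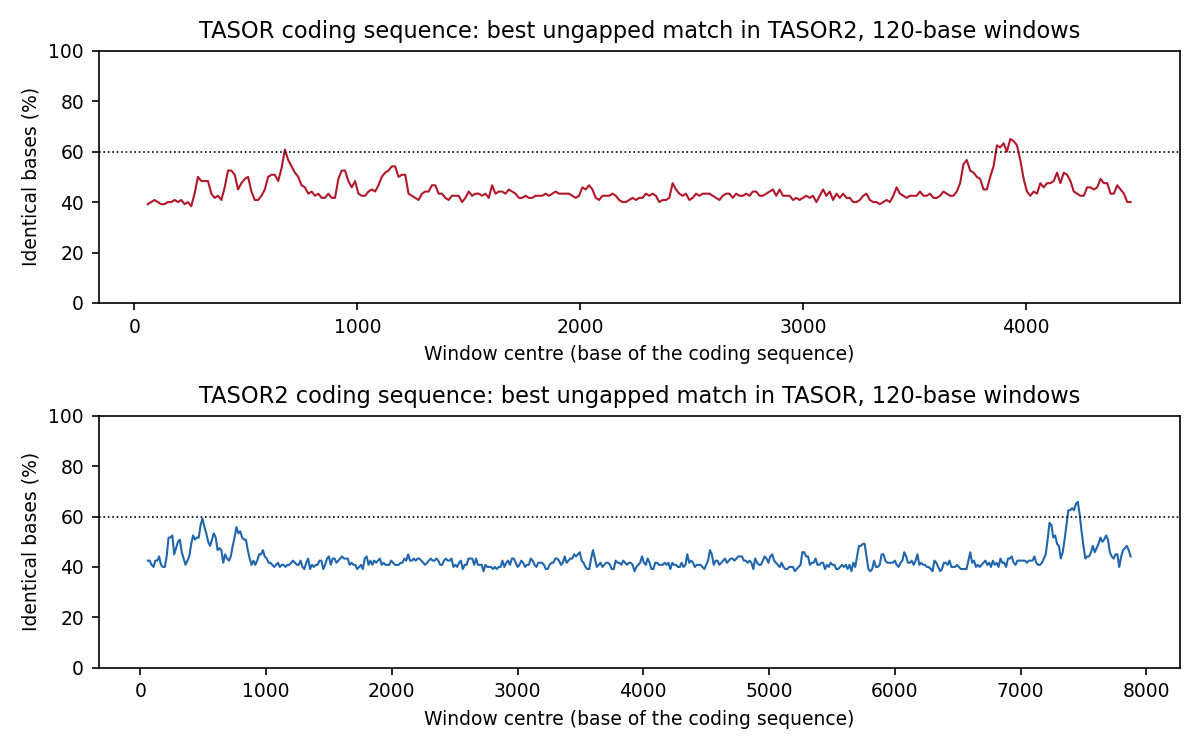
Percentage of identical bases in the best ungapped match of each 120-base window in the coding sequence of the paralog, against the window's centre in bases, for TASOR (upper panel) and TASOR2 (lower panel), with a dotted line at 60%. Similarity rises near both ends and stays near the medians of 43.3% and 41.7% between them.

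Other genes overlap the members on the opposite strand. The end of CCDC66, which encodes a coiled-coil protein, overlaps TASOR by 1686 bases and touches its exons. An antisense gene, ENSG00000226647, lies over 31894 bases of TASOR2 and also touches its exons. Of the distinct runs of 50 bases in the transcripts, 2.82% in TASOR and 3.04% in TASOR2 also occurred in transcripts of other genes on either strand. CCDC66 held 241 of the 281 such runs of TASOR, and the antisense gene 340 of the 342 of TASOR2. The sources used here do not say whether strand was used in counting, so reads from these overlaps cannot be told apart. Neither overlapping gene was listed in any of the 3 tables.

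Each table gives 1 altered group against the same controls, and it lists only genes that changed by a log2 of more than 1 in size, at an unadjusted p below 0.05 and with a log2 mean CPM above 1. CPM are counts scaled to the size of the library. TASOR was listed in the TASOR KO table alone, and TASOR2 in the FLAG-TASOR2 table alone. In the TASOR KO table, 1 of the 2 genes was listed, against 1.92% of the 13992 genes tested (0.936% listed as lower, like TASOR). In the FLAG-TASOR table, 0 of 2 were listed, against 1.87% of at least 13957 genes. In the FLAG-TASOR2 table, 1 of 2 was listed, against 6.31% of the 14001 genes tested (2.56% listed as higher, like TASOR2). At an adjusted p below 0.05 of the deposited F-test, neither gene passed where it was listed. Where a gene was not listed, its adjusted p is not known. By the unadjusted p below 0.05, 1 of 2 was listed in the TASOR KO table and 1 of 2 in the FLAG-TASOR2 table. Listed genes past the adjusted threshold made up 0.00715% of all tested genes for TASOR KO and 0.0357% for FLAG-TASOR2. These shares are lower bounds, since genes that were not listed may also have passed. No table has a value for a single library. The spread over libraries is therefore given only through the test, and the depth is unknown.

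TASOR, the targeted gene, was listed as lower in the TASOR KO cells. The authors' deposited table gives it a log2 fold change of -1.08, an unadjusted p of 0.00481 and an adjusted p of 1.00. The SE derived from the F score is about 0.23, with a 95% interval from -1.67 to -0.49 on the log2 scale. TASOR RNA in the knockout was therefore estimated at 47.4% of the control level, with an interval from 31.5% to 71.2%. The level in each group was then worked out from the fold change and the mean expression. It came to 82.4 CPM in the controls and 39.0 CPM in the knockout (interval 26.0 to 58.7 CPM, from the error of the fold change only). TASOR RNA was thus still detected in the cells labelled as knockout. The value counts all reads assigned to the gene, and reads of edited and intact alleles cannot be told apart in it.

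In cells expressing FLAG-TASOR2, the RNA of TASOR2 was listed as higher. The authors' deposited table gives a log2 fold change of 2.26, an unadjusted p of 0.000161 and an adjusted p of 0.125. The derived SE is about 0.27 and the 95% interval runs from 1.60 to 2.93 on the log2 scale, that is 4.80-fold (3.03-fold to 7.61-fold) on the linear scale. The implied level was 222.8 CPM in the controls and 1070 CPM with the transgene (interval 675 to 1696 CPM). The difference amounted to 847 CPM. The sequence of the transgene is not given, and its reads and those of the endogenous gene cannot be told apart in this value. The intervals of both genes are approximate and are not corrected for the fact that only values past the fold threshold were listed.

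**Figure D2:**
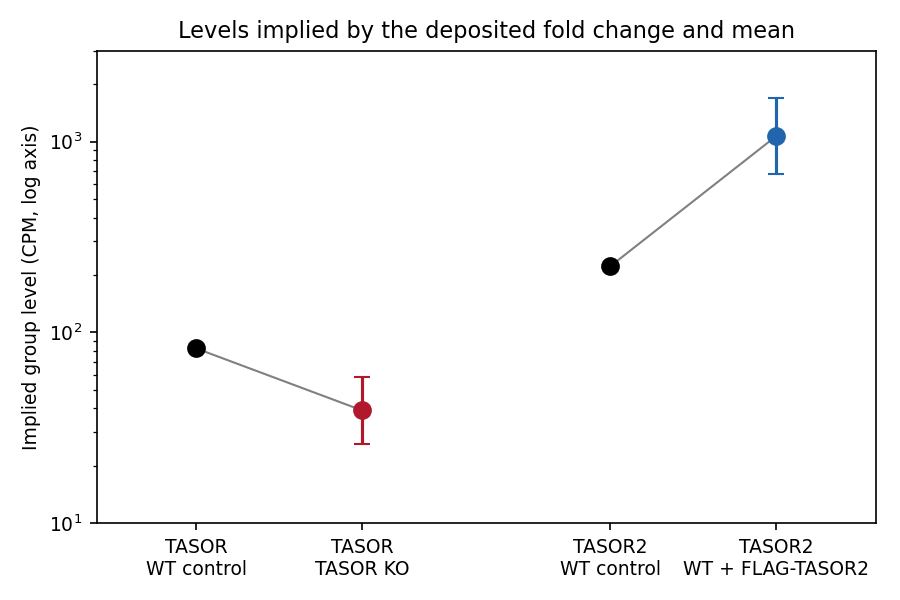
Level of TASOR and TASOR2 in CPM (log axis) in the wild-type controls (black) and in the altered group (coloured), worked out from the deposited fold change and mean. Bars are 95% intervals of the altered level that carry the error of the fold change only; TASOR goes from 82.4 to 39.0 CPM and TASOR2 from 222.8 to 1070 CPM.

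The control levels also place the genes beside each other in the wild-type control cells. In CPM, TASOR2 exceeded TASOR in the controls by a log2 difference of 1.43. Per kb of annotated exon, the control levels were 20.3 CPM per kb for TASOR2 and 8.39 CPM per kb for TASOR, a ratio of 2.42 and a log2 difference of 1.28. No test of this difference was possible, since the values come from separate fits. How well such levels agree was therefore checked on genes listed in more than 1 table, whose control level should be the same because the control libraries are the same. For 100 genes listed in both the TASOR KO and the FLAG-TASOR2 table, the control levels differed by a median log2 of 0.13, with a largest difference of 0.99. TFPI, the gene with the smallest p of the knockout table, had implied control levels of 14.8, 15.3 and 13.1 CPM in the 3 tables. The difference between TASOR2 and TASOR exceeded these discrepancies, which do not include the spread between the control libraries. It does so only if the deposited mean is the linear mean of the groups. If the mean is taken as the midpoint of the log2 levels, TASOR2 exceeded TASOR by a log2 of 1.74, and the largest discrepancy over the same 100 genes was 2.80. The sources used here do not say whether introns were counted beside exons, and this limits the comparison per kb.

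The order of the 4 implied levels was TASOR in the knockout, TASOR in the controls, TASOR2 in the controls and TASOR2 with its transgene. Within each gene, the interval of the altered level leaves out the control level. This follows from the listing rule, since every listed gene has an unadjusted p below 0.05 in the deposited F-test. In the altered cells the levels were 3.97 CPM per kb for TASOR in the knockout and 97.6 CPM per kb for TASOR2 in the transgene group.

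TASOR was not listed for the TASOR KO cells expressing FLAG-TASOR, nor was it listed with FLAG-TASOR2. TASOR2 was not listed for the knockout with or without FLAG-TASOR. If the deposited mean is the linear mean of the groups, the expression limit for listing was met in these cases. With a control level of 6.36 log2 CPM, the mean of TASOR over a pair of groups would then be at least 5.36. The corresponding values for TASOR2 are 7.80 and 6.80. Both limits lie above the listing limit of 1. Under that assumption, the genes in those tables either differed from the controls by a log2 fold change of at most 1 in size, or had an unadjusted p of 0.05 or more. With the SE that TASOR had in the knockout table, a log2 change of 1 would have a p of 0.00667 and the smallest change to reach 0.05 would be 0.59. For TASOR2, with its SE from the FLAG-TASOR2 table, the corresponding values are 0.0103 and 0.66. The SE in the tables without these genes is not known. Absence from a table is thus no measurement of equality with the controls, and whether TASOR differed between knockout cells with and without FLAG-TASOR was not tested.

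**Figure D3:**
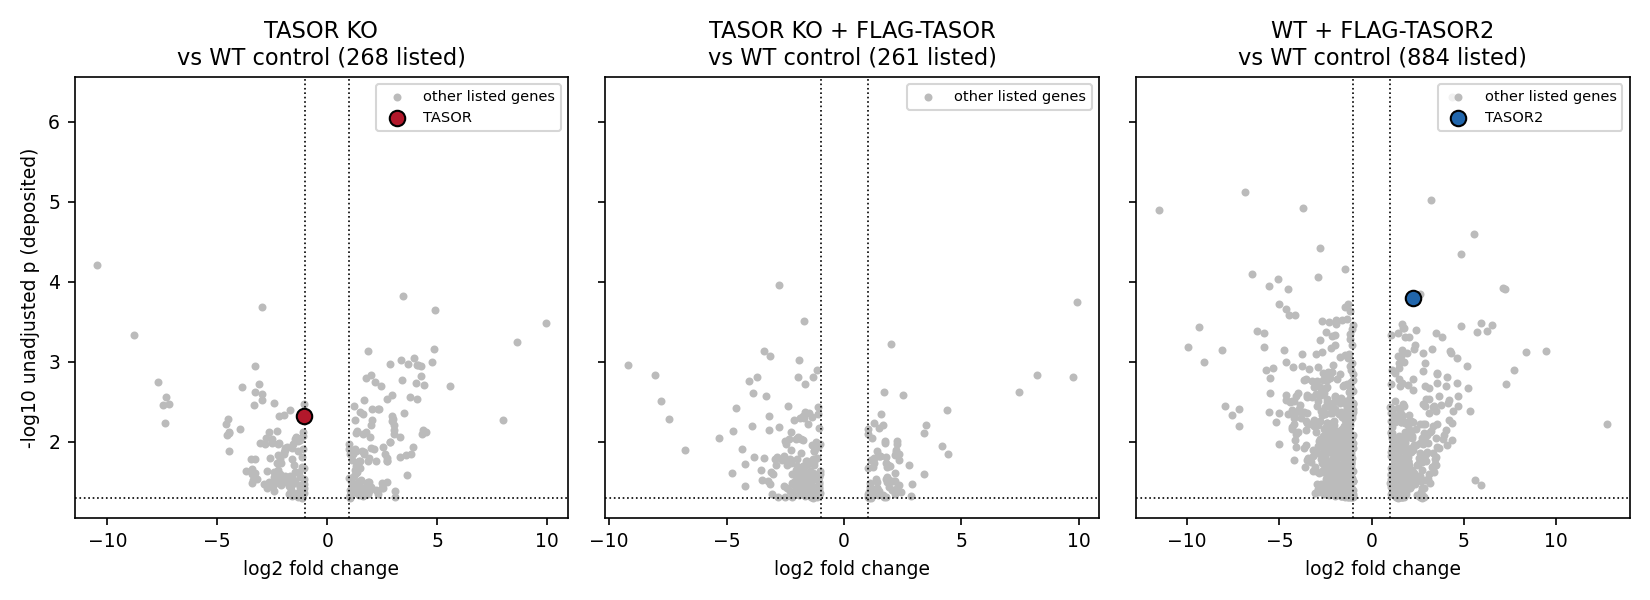
Deposited log2 fold change (horizontal) against -log10 of the unadjusted p (vertical) for every listed gene of the 3 comparisons, with dotted lines at the listing thresholds. TASOR lies just beyond the fold threshold on the left of the knockout panel, TASOR2 lies in the upper part of the FLAG-TASOR2 panel, and neither is in the FLAG-TASOR panel.

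Within their tables both genes ranked higher by mean expression than by the size of the change. TASOR had the highest mean expression of the 131 genes listed as lower in the knockout (60.7 CPM), and the fifth highest of all 268. Its SE was the third smallest of the table. Its change was among the small ones, with only 16 listed genes closer to 0 in log2 fold change. The listing rule admits a change this small only where the SE is also small. By unadjusted p TASOR ranked 57 of 268. TASOR2 ranked 18 of 884 by unadjusted p in the FLAG-TASOR2 table and 8 of the 358 genes listed as higher. It ranked 13 of 884 by mean expression (646 CPM), while 310 genes had a larger absolute log2 fold change. That mean takes in the transgene group (implied level 1070 CPM) as well as the controls (222.8 CPM). Its rank by mean expression is therefore not separate from the change itself. The log2 fold change of TASOR2, 2.26, lay above the median of 1.83 over the genes listed as higher.

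Listed genes of like expression give a scale for the precision. This scale is limited by the listing rule, which leaves out genes whose SE is large for the size of their change. In the knockout table, 14 other genes had a mean expression within a log2 of 1 of TASOR. With TASOR included, their SEs ranged from 0.21 to 1.02, with a median of 0.40, against 0.23 for TASOR. In the FLAG-TASOR2 table, 13 other genes were that close to TASOR2. With TASOR2 included, the SEs ranged from 0.15 to 0.46, with a median of 0.29, against 0.27 for TASOR2.

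**Figure D4:**
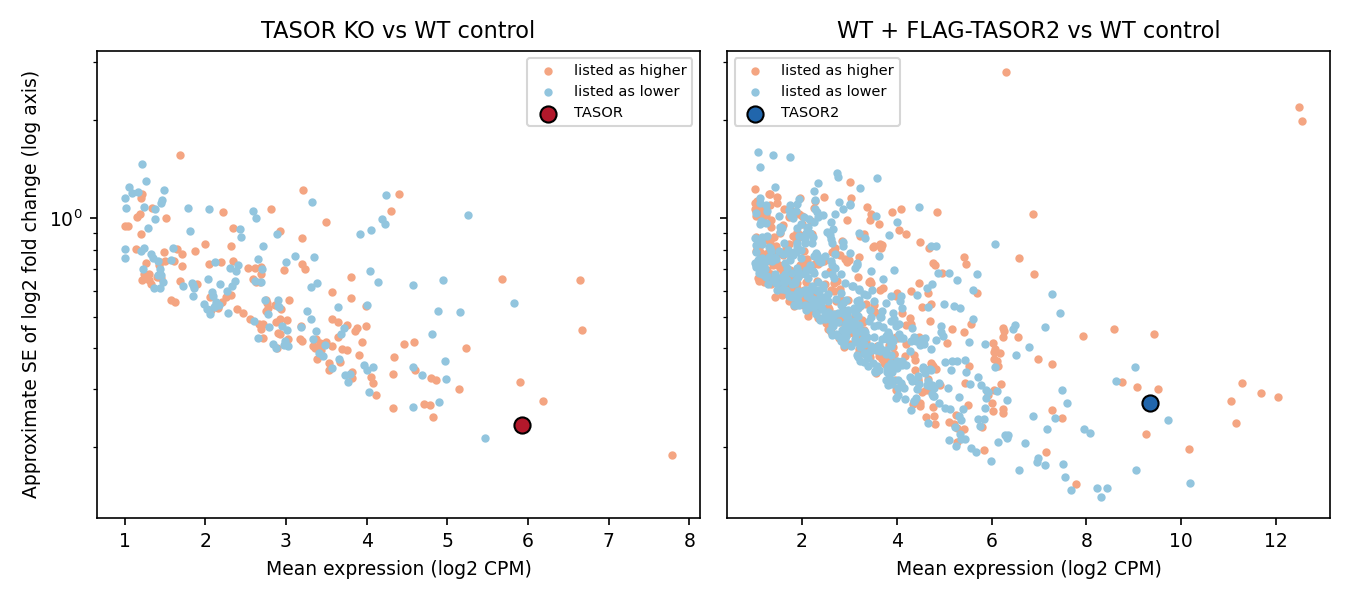
Approximate SE of the log2 fold change (log axis) against mean expression in log2 CPM for the genes listed as higher and lower in the TASOR KO table (left) and the FLAG-TASOR2 table (right). TASOR, at an SE of 0.23, lies at the lower right of its panel, and TASOR2, at 0.27, lies among the most expressed genes of its panel.

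Genes with the most similar pattern were taken as those listed in the same table alone, with the same sign, and nearest in log2 fold change and log2 mean expression (Euclidean distance over these 2 values of 1 comparison). For TASOR, 65 genes were eligible. The nearest was SCFD2, a Sec1-family domain gene, at a distance of 0.46, with a log2 fold change of -1.07 (SE 0.21) in the authors' deposited table and implied levels of 59.7 CPM in the controls and 28.4 CPM in the knockout. ITPR3, an inositol trisphosphate receptor and calcium channel, came next at -1.97 (0.55) in the authors' deposited table. LAMB1, a laminin chain, followed at -1.34 (0.37), C7orf50 at -1.11 (0.27) and ATP7A, a copper transporter, at -1.23 (0.44) in the authors' deposited table. Each of these 5 genes had an adjusted p of 1.00, like TASOR.

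For TASOR2, 237 genes were eligible. The nearest was the alpha-globin gene HBA2 at a distance of 0.28, with a log2 fold change of 2.04 (SE 0.30) in the authors' deposited table and implied levels of 283.9 CPM in the controls and 1171 CPM with FLAG-TASOR2. The embryonic globin gene HBZ was at 1.38 (0.44) in the authors' deposited table. The other 3 are genes of the mitochondrial genome that encode subunits of respiratory complex I. In the authors' deposited table MT-ND3 was at 2.01 (0.46), MT-ND4L at 1.34 (0.32) and MT-ND6 at 1.10 (0.31). None of the 5 had an adjusted p below 0.05, with the smallest at 0.125. Likeness here is of 2 numbers in 1 comparison.

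**Figure D5:**
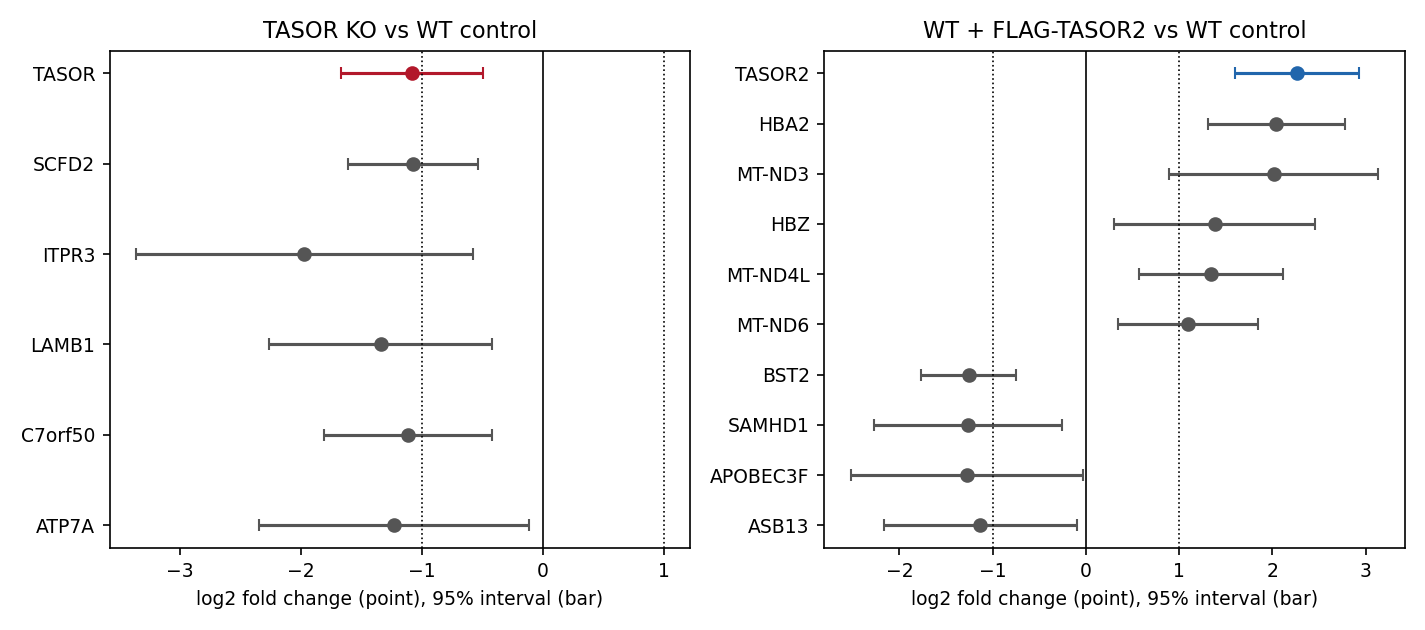
Deposited log2 fold change (points) with approximate 95% intervals (bars) for TASOR and the 5 genes nearest to it in the knockout (left), and for TASOR2, its 5 nearest genes, 3 host factors of LINE-1 and the neighbouring gene ASB13 with FLAG-TASOR2 (right). Dotted lines mark the fold threshold for listing; the interval of TASOR reaches across it, from -1.67 to -0.49, and that of TASOR2, from 1.60 to 2.93, does not.

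The partners of the proteins were looked up in the same tables. Of the 4 core genes TASOR, TASOR2, MPHOSPH8 and PPHLN1, only the altered gene itself was listed, in the knockout and in the FLAG-TASOR2 table. MPHOSPH8, which reads methylated lysine 9, and PPHLN1, which binds RNA, were in none of the 3 tables. Of 12 genes of HUSH partners and effectors, 0 were listed in any table. They include SETDB1, which methylates lysine 9, its cofactor ATF7IP, the chromatin ATPase MORC2, the corepressor TRIM28 and the DNA-binding protein ZNF638. Of 16 genes of lysine 9 and DNA methylation, among them the methyltransferases SUV39H1, EHMT2 and DNMT1 and the HP1 gene CBX5, 0 were listed in any table. With 1.92%, 1.87% and 6.31% of all tested genes listed, few or no members of lists of this size would be listed at the share of all genes.

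Host factors of LINE-1 were the next list. Of 18 such genes, 3 were listed with FLAG-TASOR2, all as lower, against 3.76% of all tested genes listed as lower there. Their median log2 fold change was -1.26, beside -1.85 over all 526 genes listed as lower in that table, so they lie near the listing threshold. BST2, which tethers virus particles and is induced by interferon, was at -1.26 (SE 0.21, adjusted p 0.142) by the authors' deposited table, with implied levels of 99.7 CPM in the controls and 41.7 CPM with FLAG-TASOR2. SAMHD1, which depletes nucleotides for reverse transcription, was at -1.26 (0.41, adjusted p 0.313) by the authors' deposited table. APOBEC3F, a cytidine deaminase, was at -1.28 (0.51, adjusted p 0.397) by the authors' deposited table. Fold changes of these 3 genes are close to each other, and none passed an adjusted p of 0.05. Of the 18, 0 were listed in the knockout or with FLAG-TASOR, and the difference between the comparisons was not tested.

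Genes close to the members were counted beside the share of all genes listed (1.92%, 1.87% and 6.31% of those tested). Within 1 Mb of TASOR lie 28 other annotated genes, of which 12 are protein-coding, and 0 were listed in any of the 3 tables. Within 1 Mb of TASOR2 lie 60, of which 20 are protein-coding. Of these, ASB13, which encodes an ankyrin-repeat protein with a SOCS box, was listed with FLAG-TASOR2 alone. It lies 18.2 kb before the start of TASOR2, at 5638867 to 5666595 of chromosome 10. The authors' deposited table gives it a log2 fold change of -1.13 (SE 0.42, unadjusted p 0.0368, adjusted p 0.373), opposite in sign to TASOR2. No other gene within this distance of TASOR2 was listed. The annotated genes include some that were not tested. Since the number tested in each window is not known, the counts and the shares have different denominators.

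The labels call the cells lymphoblasts, so markers of the erythroid and lymphoid lineages were looked up beside the members. Since only listed genes have a value, absence of a marker from a table is not absence of its RNA. Of 11 erythroid markers, 4 were listed with FLAG-TASOR2, all as higher (2.56% of all tested genes were), at log2 fold changes from 1.12 to 2.62 in the authors' deposited table. HBE1 alone was listed with FLAG-TASOR, as higher, where 85 of at least 13957 tested genes were listed as higher. In the knockout, 0 of the 11 were listed. Of 8 genes taken as lymphoid markers, RAG1 and PTPRC were listed as higher in the knockout (0.979% of all tested genes were) and RAG1 with FLAG-TASOR2. PTPRC is not restricted to the lymphoid lineage. The defining genes CD79A, CD3D, CD3E, MS4A1 and PAX5 were in none of the tables. In the FLAG-TASOR2 comparison, the implied control levels of the erythroid markers were 4.81 CPM (SLC4A1), 284 CPM (HBA2), 383 CPM (HBZ) and 718 CPM (HBA1). That of RAG1 was 5.71 CPM there, and that of PTPRC was 47.1 CPM in the TASOR KO comparison. The erythroid markers stand in the same comparison as the higher TASOR2 value, and their part in it was not tested.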

How the data were processed

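Values come from 3 gene tables, each comparing 2 libraries of an altered group with the same 2 controls. Per the submitters' processing notes, STAR 2.7.8, Salmon, edgeR, DESeq2 and hg38 were used, with no role stated. Per the file headers, each gene has these deposited values: log2 fold change, logCPM (its mean on a log2 scale), F score, p-value and adjusted p-value, and only part of the genes are listed. No model was refitted. The SE is the size of the log2 fold change over the root of F, and 95% intervals used the t quantile at the degrees of freedom recovered from F and p (5.36, 5.34 and 6.01), which is approximate. Group levels assume that the mean expression is the linear mean of the 2 groups. The number of genes tested was recovered by dividing the top gene's adjusted p by its unadjusted p, or from the largest row number. The SE, degrees of freedom, intervals and group levels were tested on simulated data whose mean was the linear mean of the 2 groups. The simulation could therefore not test that assumption, and recovery of the number of genes tested was not simulated. Positions and transcripts are from GENCODE 29 (GRCh38, the assembly of hg38). Python 3.11.15, SciPy 1.17.1 and Biopython 1.88 were used. Genes named are the members, listed members of 4 lists (HUSH core, HUSH partners, lysine 9 and DNA methylation, LINE-1 host factors), listed neighbours within 1 Mb, the 5 nearest genes by pattern, TFPI and lineage markers. Members and lists were chosen with earlier results of these data known, and the comparison of coding sequences was added after the tables had been seen. Results for some genes are left out of the text.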

Additional observations from a re-analysis of the deposited data

How the results depend on the processing

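Of 52 alternatives over 26 results, 43 left the result on its side of the threshold or within its spread. Many of these could not have changed it. A stricter cutoff leaves an empty count empty, and so does a smaller window around a gene without listed neighbours. The tally is therefore no measure of robustness. With an unadjusted p below 0.05 as the criterion, TASOR in the knockout (-1.08) and TASOR2 with FLAG-TASOR2 (2.26) would both be called. Every listed gene would be, since this criterion is part of the listing rule. With an adjusted p below 0.20, TASOR2 (2.26) would be called, together with 209 other genes of its table. At 0.10 neither TASOR nor TASOR2 would be. The control level of TASOR2 was 8.20 log2 CPM in place of 7.80 if the mean expression is taken as the midpoint of log2 levels, and its rank by p came to 3.62% of genes in place of 2.04% among those at or above the median expression. With an absolute log2 fold change above 1.5, the count of listed core genes in the knockout went from 1 to 0 and that of LINE-1 host factors with FLAG-TASOR2 from 3 to 0. With p below 0.01 the latter was 1. Within 2 Mb of TASOR, 2 genes, among them ABHD6, were listed as lower with FLAG-TASOR2. No paired analysis was possible because the tables hold no value per library, and leaving out a library was not possible for the same reason. Protein identity was not run, since no protein sequences were used here. Depth per library is unknown, and no detection limit is given.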
